A study of Mus musculus with 2 samples.

Results

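Interferon-stimulated genes are the genes a cell switches on when an interferon reaches its surface. A list of 34 such genes was followed in droplet single-cell RNA profiles of mouse liver, and 32 of the 34 had a row in both count matrices, out of 32286 features in each. Mx1 and Mx2 were not analysed here. Of the others, 24 of 26 were grouped as type I-like (mainly induced by interferon alpha and beta) and 8 as gamma-like (mainly induced by interferon gamma). A subset of 18 type I-like genes that tend to be low in resting cells, called the inducible core here, served to count responding cells: it leaves out Ifi27, Bst2, Stat2, Irf9, Trim25 and Parp14.

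The study compared injured and tumour-bearing liver, with cells obtained by perfusion and labelled as hepatocytes from mice of strain C57BL/6J;129S6/SvEvTac. The DDC library pooled wild-type (WT) mice on normal diet (0 days, 2 mice) with Sox9-EGFP mice after 2 weeks of a diet with DDC (diethoxycarbonyl dihydrocollidine), which injures the bile ducts (2 mice). In the Sox9-EGFP mice a green fluorescent protein reporter marks cells in which Sox9, a biliary and progenitor gene, is active. The second library, called the cMet library here (DDC and cMet in the plots), pooled WT mice (0 days, 2 mice) with Sox9-CreERT2:Rosa26-mTmG mice that received DDC together with cMet, a growth factor receptor delivered by hydrodynamic tail vein injection (HTVi), and were sampled at 5 months (2 mice). The Rosa26-mTmG allele switches from a red to a green membrane marker where Cre, here under Sox9 control, has acted. Each library is 1 sample, and its barcodes do not separate control from treated mice, so no test between conditions was possible: intervals below are 95% intervals for counting error only, and genotype, treatment, time and sequencing depth cannot be told apart between the libraries.

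Type I interferons bind the receptor pair Ifnar1 and Ifnar2 and signal through the kinases Jak1 and Tyk2 to the interferon-stimulated response element (ISRE) before genes such as Isg15 and Ifit1. Interferon gamma acts through Ifngr1 and Ifngr2 on the gamma-activated site (GAS). In liver, hepatocytes and Kupffer cells, the resident macrophages, both respond, and macrophages are a known source of interferon beta.

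Promoters are shown for 8 members named in the results, all of which hold a match to the ISRE core given below. Of these, 5 are of the inducible core and differed between cell classes or led the strongest single cells (Isg15, Ifit1, Ifit3, Rsad2, Oas3). The others are Bst2, abundant in Alb-high cells and in other classes, and the gamma-like genes Gbp2 and Irgm1. Each line gives the 200 bases before the RefSeq start site, 5′ to 3′ on the gene's strand (build GRCm38.p6), with matches to the ISRE core GAAANNGAAA in capitals, on either strand and with overlaps merged.
Isg15, chr4:156200819-156201018, minus strand: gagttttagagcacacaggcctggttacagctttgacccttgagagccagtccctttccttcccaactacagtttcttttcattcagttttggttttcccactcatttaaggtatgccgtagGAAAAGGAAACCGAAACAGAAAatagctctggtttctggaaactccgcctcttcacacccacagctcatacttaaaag
Ifit1, chr19:34640689-34640888, plus strand: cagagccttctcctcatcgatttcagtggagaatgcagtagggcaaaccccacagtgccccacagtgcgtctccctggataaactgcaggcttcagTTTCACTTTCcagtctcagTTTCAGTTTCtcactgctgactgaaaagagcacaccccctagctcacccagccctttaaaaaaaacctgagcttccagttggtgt
Ifit3, chr19:34583329-34583528, plus strand: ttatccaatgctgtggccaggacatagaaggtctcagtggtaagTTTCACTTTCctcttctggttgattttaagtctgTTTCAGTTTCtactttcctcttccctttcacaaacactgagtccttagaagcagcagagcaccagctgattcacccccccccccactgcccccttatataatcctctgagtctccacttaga
Rsad2, chr12:26456453-26456652, minus strand: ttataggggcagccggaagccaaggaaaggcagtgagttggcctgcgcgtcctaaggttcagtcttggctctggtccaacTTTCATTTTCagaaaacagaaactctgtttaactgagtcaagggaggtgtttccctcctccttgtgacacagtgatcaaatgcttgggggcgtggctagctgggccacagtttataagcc
Oas3, chr5:120777660-120777859, minus strand: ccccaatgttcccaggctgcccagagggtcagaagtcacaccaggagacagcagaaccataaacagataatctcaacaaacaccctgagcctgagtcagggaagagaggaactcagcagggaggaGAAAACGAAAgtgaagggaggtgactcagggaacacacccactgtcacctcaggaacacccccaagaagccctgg
Bst2, chr8:71537473-71537672, minus strand: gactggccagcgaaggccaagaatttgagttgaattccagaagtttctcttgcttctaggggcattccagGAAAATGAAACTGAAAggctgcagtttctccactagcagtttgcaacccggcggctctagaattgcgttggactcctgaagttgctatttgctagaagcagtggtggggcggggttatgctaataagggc
Gbp2, chr3:142620463-142620662, plus strand: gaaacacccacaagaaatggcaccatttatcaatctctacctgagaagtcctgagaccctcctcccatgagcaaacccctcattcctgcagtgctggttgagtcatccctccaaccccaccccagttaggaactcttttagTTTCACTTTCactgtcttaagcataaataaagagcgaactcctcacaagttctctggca
Irgm1, chr11:48871421-48871620, minus strand: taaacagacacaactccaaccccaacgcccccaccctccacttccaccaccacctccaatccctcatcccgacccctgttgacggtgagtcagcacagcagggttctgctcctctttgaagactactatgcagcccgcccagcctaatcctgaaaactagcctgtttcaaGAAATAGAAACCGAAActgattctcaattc

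The Isg15 promoter held 3 overlapping matches, Ifit1, Ifit3, Bst2 and Irgm1 held 2 each, and Rsad2, Oas3 and Gbp2 held 1. In the longer window of 250 bases before to 50 after the start, 25 of the 34 members had a RefSeq promoter. The ISRE core occurred in 11 of 18 type I-like genes (61.1%) and in 5 of 7 gamma-like genes (71.4%), against 3.99% of 27025 genes. The GAS motif TTCNNNGAA, searched on both strands, occurred in 3 of 18 type I-like (16.7%) and 3 of 7 gamma-like genes (42.9%), against 9.55% of all genes. A match describes letters in this window and is not a binding site. Several members lie in gene clusters: on GRCm38, Ifit2 to Ifit1 lie within chr19:34550694-34650009 with Ifit3 and Ifit3b between them, Gbp7, Gbp3 and Gbp2 within chr3:142530342-142638008, and Oas2, Oas3 and Oas1a within chr5:120730333-120907521. The longest Ifit3 and Ifit3b transcripts were identical at 81.2% of aligned positions, so reads may have been split between them, and their single values are uncertain. Over the last 500 bases, nearest the 3′ end that is counted, identity was 44.8%.

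The DDC library held 104523363 UMIs in 8694 barcodes, of which 3613 (41.6%) passed the cell filter (at least 500 genes, at least 1000 UMIs, at most 30% mitochondrial UMIs), with a median of 20397 UMIs. The cMet library held 186997180 UMIs in 18316 barcodes, of which 12593 (68.8%) passed, with a median of 3529 UMIs. The libraries shared 50 barcodes, 8 of them among the cells kept. Marker panels gave 2517 and 8296 Alb-high cells (DDC library, then cMet library, an order kept for paired values below), 240 and 1144 Kupffer-like, 67 and 165 other myeloid and 47 and 279 endothelial-like cells. All 8 hepatocyte check genes were present in Alb-high cells (312 and 373 UMIs per 10,000), while 7 biliary and progenitor genes summed to 43.2 and 6.01 per 10,000 there. All 6 Kupffer markers were detected in Kupffer-like cells (154 and 133 per 10,000) and at 0.56 and 1.03 in Alb-high cells. Cells with markers of several classes, or of a non-hepatocyte class with high Alb, were set apart as mixed (542 and 2362 cells). No doublet caller was used, and 66 and 134 Alb-high cells lay within 25% of the Alb cut.

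Over both libraries together interferon beta was the ligand with the most UMIs, and nearly all were in the cMet library; in the DDC library Ifng had the most. Ifnb1 (chr4:88522025-88522774, GRCm38) had 191 UMIs in 116 kept cells of the cMet library and 1 UMI in 1 cell of the DDC library. In the former, 85 Ifnb1 UMIs lay in 60 of 1144 Kupffer-like cells (0.0605 per 10,000), 17 in 11 of 165 other myeloid cells, 79 in 35 mixed cells and 9 in 9 of 8296 Alb-high cells (0.000704 per 10,000). Kupffer-like cells of the DDC library had 0 Ifnb1 UMIs, which allows up to 0.00596 per 10,000 (3 UMIs over the class), so the Kupffer-like level was higher in the cMet library by at least 3.35 on the log2 scale, taking the measured cMet level as it stands (its exact Poisson interval is 0.0484 to 0.0749). No Ifnb1 UMI was found in the barcodes outside the filter in either library. Ifng, made by T and natural killer cells, had 15 UMIs in 6 cells and 13 UMIs in 10 cells. Ifnk, the interferon kappa gene, had 5 UMIs in 4 cells and 27 UMIs in 27 cells. Interferon alpha was nearly undetected, with 1 UMI each of Ifna2 and Ifna16 in the cMet library and 2 of Ifnab in the DDC library, and the lambda genes Ifnl2 and Ifnl3 had none in kept cells.

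Kupffer-like cells held more receptor RNA than Alb-high cells. Of 6 receptor genes, 5 were higher there by at least 1 on the log2 scale in the DDC library, where 23.6% of 12650 genes with at least 50 UMIs passed that fold upward and 23.1% downward. In the cMet library all 5 with 50 UMIs were higher, where 32.7% of all genes passed upward. Il10rb, shared by the lambda interferon and interleukin 10 receptors, had the widest upward ratio (3.41 and 4.68). Ifngr1, a subunit of the interferon gamma receptor, was at 3.4 per 10,000 in Kupffer-like and 0.694 in Alb-high cells of the DDC library. In the other library it was at 2.91 and 0.231. Ifnlr1, the lambda interferon receptor, went the other way in the DDC library (0.00199 in Kupffer-like, 0.018 in Alb-high cells, log2 ratio -3.18). Its Kupffer-like level rests on hardly any UMIs among the 5036164 of that class, so the size of the ratio is not read. In the comparison of the other library Ifnlr1 had under 50 UMIs. Within Alb-high cells all 6 receptor genes had log2 ratios below 0 for the cMet over the DDC library (median -1.14, against -0.31 over all genes), and 4 passed the fold downward, against 13.6% of all genes, with Ifnlr1 (-3.21), Ifngr1 (-1.58) and Ifngr2 (-1.21) the lowest. Of 14 signal transduction genes, 6 and 9 were past the fold upward in Kupffer-like over Alb-high cells and none downward, led by Irf8 (log2 ratio 5.34 and 6.28), a macrophage transcription factor. Among the sensors of foreign or misplaced nucleic acid, 9 of 12 genes with 50 UMIs were past the fold upward in each library, led by Tlr7 (7.07 and 6.71), a receptor for single-stranded RNA.

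In Alb-high cells, 3 genes made up most of the interferon-stimulated RNA. Type I-like members summed to 10.1 UMIs per 10,000 in the DDC library and 8.46 in the other, and of this Ifi27, a mitochondrial protein gene, and Bst2, which encodes the virus-trapping protein tetherin, gave 5.58 and 4.51. Bst2 stood at 3.14 and 1.89 per 10,000 and Ifi27 at 2.44 and 2.62. Iigp1, an interferon-inducible GTPase, was the highest gamma-like member with 3.25 and 2.78, out of 5.01 and 3.86 for all 8. The next members by level were Trim25 (0.5), which activates the RNA sensor RIG-I, and Isg15 (0.481), a ubiquitin-like protein, in the DDC library. Ifih1 (0.401), an RNA sensor gene, and Isg15 (0.358) took those places in the cMet library. At the low end, Oas2 and Oas3, which make the messenger of an RNA-degrading pathway, were at 0.00213 and 0.00426 in the DDC library and at 0.00766 and 0.00399 in the other. Barcodes with too few genes or UMIs for the filter served as background. Oas2 and Oas3 lay below it (0.0178 and 0.0125 in DDC, 0.0372 and 0.023 in cMet). In all, the Alb-high level was at or below it for 6 of 32 members in the DDC library, Ifit3, Ifit3b, Oasl2, Oas2, Oas3 and Irf1. In the cMet library this held for 9 of 32, Ifit3b, Oasl2, Oas2, Oas3, Irf7, Ifi44, Irf1, Gbp2 and Gbp3. The margin ranged from wide (Ifit3 at 0.0601 against 0.107, DDC) to narrow (Ifi44 at 0.106 against 0.108, cMet). These levels are not read as expression in Alb-high cells, and ratios over them, those below included, are given as counted and not read for size or order. The core as a whole was at 1.88 and 2.19 per 10,000 outside the filter, against 3.15 and 2.97 in Alb-high cells. Outside it, the 4297 and 4330 barcodes had median mitochondrial shares of 6.31% and 5.84%. The 515 and 400 of these with at least 2000 UMIs (median 4860 and 5630) had median shares of 89.2% and 88.6%. Alb-high cells had 6.15% and 7.35%. Mitochondrial UMIs count in the total, which lowers the outside levels more than those of Alb-high cells. By that measure the counts of 6 and 9 members may be too low. The outside barcodes also held more Kupffer marker RNA, 4.97 and 6.06 per 10,000 against 0.56 and 1.03 in Alb-high cells. For members high in Kupffer-like cells the outside level may overstate the background of Alb-high cells, and the counts may then be too high. Whether the core in Alb-high cells exceeded this background once mitochondrial UMIs are left out was not tested.

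**Figure D1:**
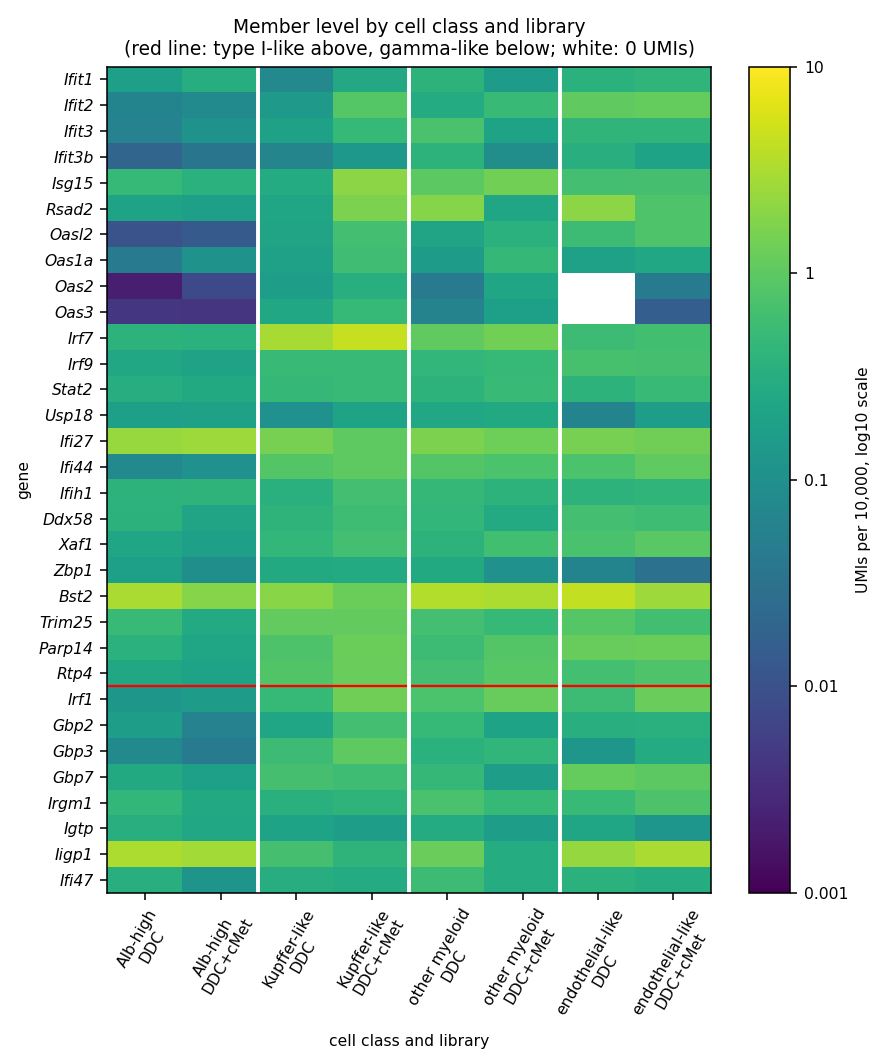
Level of each member (rows, UMIs per 10,000 on a log10 colour scale) in 4 cell classes of both libraries (columns), type I-like members above the red line and gamma-like members below. Bst2, Ifi27 and Iigp1 are the highest members within Alb-high cells, and Irf7 is the highest within Kupffer-like cells. Bst2 and Iigp1 are also high in endothelial-like cells. Oas2 and Oas3 are at 0 UMIs in endothelial-like cells of the DDC library.

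Kupffer-like cells had a higher type I-like level than Alb-high cells, with different leading genes. The sum was 14.3 against 10.1 per 10,000 in the DDC library (log2 ratio 0.49, interval 0.46 to 0.53) and 22.2 against 8.46 in the cMet library (1.39, 1.37 to 1.41). For the inducible core the difference was wider, at 8.03 against 3.15 (1.35) and 16.5 against 2.97 (2.47). Ifi27 and Bst2 together went the other way, with log2 ratios of -0.69 and -0.98. By gene, 13 of 24 type I-like members passed the fold upward in the DDC library and 1 downward. Of all 12650 genes there, 23.6% passed upward and 23.1% downward. Upward calls numbered 18 of 24 in the cMet library and downward calls 1, where 32.7% of all 13272 genes passed upward and 22.9% downward. The median log2 ratio of the members was 1.06 and 2.06, against 0.07 and 0.36 over all genes.

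Irf7, the transcription factor that amplifies interferon production, led the Kupffer-like cells at 2.97 per 10,000 in the DDC and 4.45 in the cMet library. It was at 0.392 and 0.356 in Alb-high cells. Irf7 UMIs were found in 91.7% and 87% of Kupffer-like cells, and after thinning each cell to 2000 UMIs in 42.2% and 53.1%. The next members in the DDC library were Bst2 (1.95), Ifi27 (1.52), Trim25 (1.08) and Ifi44 (0.856). In the cMet library they were Isg15 (2.01), Rsad2 (1.63), which encodes the antiviral enzyme viperin, Irf1 (1.36), a gamma-like transcription factor, and Parp14 (1.28). The widest ratios of Kupffer-like over Alb-high cells as counted belonged to Oas2 (6.29), Oas3 (5.86) and Oasl2 (4.38) in the DDC library, and to Oas3 (6.92), Oasl2 (5.53) and Oas2 (5.43) in the other. All rest on Alb-high levels below those outside the filter. In Kupffer-like cells these genes were at 0.167 and 0.33 (Oas2), 0.248 and 0.484 (Oas3) and 0.216 and 0.639 per 10,000 (Oasl2). Oas3 UMIs were present in 35% and 37.2% of Kupffer-like cells, and in 6.75% and 10.1% after thinning, against 0.0515% and 0.0966% of thinned Alb-high cells.

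Isg15 had opposite signs in the libraries. It was at 0.29 per 10,000 in Kupffer-like cells and 0.481 in Alb-high cells of the DDC library (log2 ratio -0.73), and at 2.01 and 0.358 in the cMet library (2.49). Ifit1, which binds viral RNA ends, was lower in Kupffer-like cells, at 0.0755 against 0.183 (-1.28) and 0.256 against 0.308 (-0.26). Leaving out the cells of very high core level described below, a step chosen after seeing the data, put the second Ifit1 ratio at 0.01. Usp18, which removes Isg15 from proteins, was at 0.105 against 0.183 (-0.80) and 0.209 against 0.195 (0.09). Ifit2 and Ifit3, by contrast, were higher in Kupffer-like cells of both libraries, with ratios of 1.22 and 3.43 for Ifit2 and 1.68 and 2.15 for Ifit3. The DDC ratio of Ifit3 is over an Alb-high level not read as expression. Without the same cells the Ifit3 ratios were 2.41 and 2.44, and that of Rsad2 in the cMet library went from 3.15 to 3.98.

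**Figure D2:**
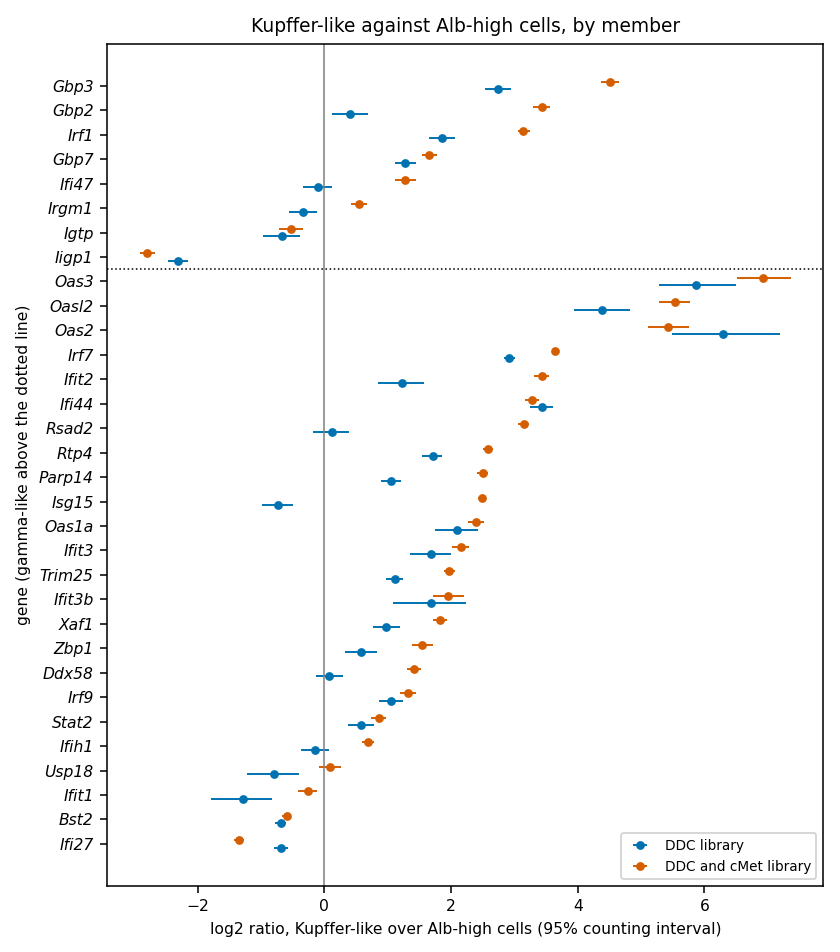
Log2 ratio of Kupffer-like over Alb-high cells (x axis) for each member (y axis) in both libraries, with 95% intervals for counting error. Oas2, Oas3 and Oasl2 lie farthest right in both, over Alb-high levels below those outside the filter, so their order is not read, Iigp1 lies farthest left, and Isg15 lies on opposite sides of 0 (-0.73 and 2.49).

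The gamma-like sum split by library. Kupffer-like cells had 3.43 per 10,000 against 5.01 in Alb-high cells of the DDC library (log2 ratio -0.55, -0.62 to -0.48), and 4.86 against 3.86 in the cMet library (0.33, 0.30 to 0.37). Iigp1 carried the Alb-high side, with 0.657 against 3.25 in the DDC library (-2.31) and 0.402 against 2.78 in the other (-2.79), the lowest ratio of any member in each library. Without Iigp1 the gamma-like sum was higher in Kupffer-like cells of both libraries, at 2.78 against 1.76 (0.66) and 4.46 against 1.07 (2.05). Gbp3, a guanylate-binding protein that attacks intracellular microbes, was at 0.556 against 0.0831 (2.74) and at 1.02 against 0.0448 (4.51). Irf1 was at 0.471 against 0.129 (1.86) and at 1.36 against 0.154 (3.14). The Alb-high levels of Irf1, and that of Gbp3 in the cMet library, were at or below those outside the filter. Igtp, a GTPase of the same family as Irgm1 and Iigp1, was lower in Kupffer-like cells of both libraries (-0.66 and -0.52). In all, 3 of 8 and 5 of 8 gamma-like members passed the fold upward and 1 of 8 downward in each. Of all genes, 23.6% and 32.7% passed upward and 23.1% and 22.9% downward. The median log2 ratio of the gamma-like members was 0.15 and 1.47, against 0.07 and 0.36 over all genes. The DDC median was thus near that of all genes. Where classes were taken from Leiden clusters the gamma-like ratio in the DDC library was -0.13.

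**Figure D3:**
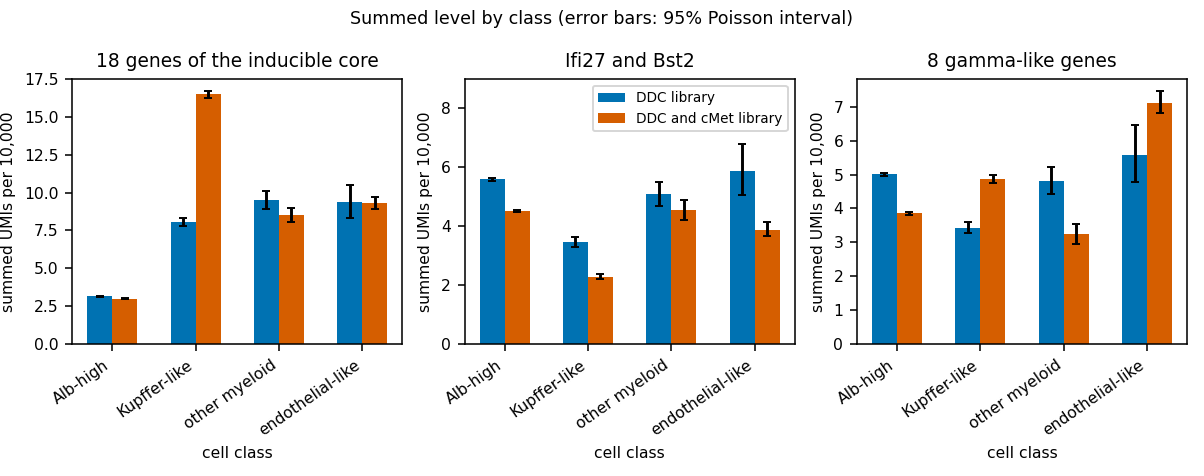
Summed level (y axis, UMIs per 10,000) of the 18 inducible core genes, of Ifi27 with Bst2, and of the 8 gamma-like genes in 4 cell classes of both libraries, with 95% Poisson intervals. The core is lowest in Alb-high cells (3.15 and 2.97) and highest in Kupffer-like cells of the cMet library (16.5).

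Endothelial-like cells also exceeded Alb-high cells in type I-like RNA. The sum was 18.4 per 10,000 in 47 cells of the DDC library (log2 ratio over Alb-high cells 0.86, 0.73 to 0.97) and 16.2 in 279 cells of the cMet library (0.94, 0.90 to 0.99). In the DDC library 1 cell held 110 of the 291 core UMIs. Without it the type I-like level was 14.7 and the ratio 0.53, and without the very high cells of both classes the ratio was 0.56. Both ratios, of sums that include Ifi27 and Bst2, lie below the median over all genes in that library, 0.72. The inducible core without that cell was at 0.91 (0.69 to 1.12), above this median but with an interval that includes it. Without the very high cells of both classes, 10 of 22 type I-like members in that library passed the fold upward and 2 downward. The leading members there were Bst2 (4.36), Iigp1 (2.36), Rsad2 (2.03), Ifi27 (1.52) and Parp14 (1.16), and 54 of the 63 Rsad2 UMIs came from that cell. In the cMet library they were Iigp1 (3.11), Bst2 (2.55), Ifi27 (1.34), Parp14 (1.25) and Irf1 (1.2). By gene, 11 of 22 and 15 of 24 type I-like members passed the fold upward, and 2 and 1 downward. The shares of all genes doing so were 32.9% and 43.1% upward and 14.7% and 17.1% downward, and the median ratio over all genes was 0.72 and 0.79 against 1.15 and 1.58 for the members. The widest ratios were Oasl2 (5.73), Ifit2 (4.08) and Ifit3b (3.98) in the DDC library and Oasl2 (5.83), Ifit2 (3.82) and Ifi44 (3.29) in the other, of which those of Oasl2, Ifit3b and Ifi44 are over Alb-high levels not read as expression. The lowest as counted were Usp18 (-1.50, -4.55 to 0.35) and Zbp1 (-1.47, -4.52 to 0.38), each from 2 endothelial UMIs and with intervals that include 0, and Ifi27 (-0.69), then Zbp1 (-1.65), Ifi27 (-0.97) and Igtp (-0.94). Zbp1 is a sensor of left-handed nucleic acid that can trigger cell death.

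The gamma-like sum in endothelial-like cells was 5.58 against 5.01 per 10,000 in the DDC library, a difference within counting error (0.16, -0.07 to 0.37). Without the very high cells it was -0.03 (-0.27 to 0.20). In the cMet library it was 7.13 against 3.86 (0.89, 0.82 to 0.95). There 6 of 8 gamma-like members passed the fold upward, where 43.1% of all genes did, and 2 of 8 in the DDC library, where 32.9% did, and none passed downward. Iigp1 was at 2.36 against 3.25 in the DDC library (-0.47) and at 3.11 against 2.78 in the other (0.16), unlike in Kupffer-like cells. Cxcl9 and Cxcl10, chemokines that draw T cells, were at 1.47 and 1.87 per 10,000 in endothelial-like cells of the cMet library, against 0.132 and 0.346 in Alb-high cells.

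Other myeloid cells, which passed the myeloid panel but not the Kupffer one, had core levels of 9.5 per 10,000 (67 cells) and 8.52 (165 cells). Those of the DDC library held 157 per 10,000 of the myeloid panel, but also 68 of biliary and progenitor genes and 45.4 of hepatocyte check genes. Kupffer-like cells there held 6.72 and 21.6 of the latter 2 lists, and other myeloid cells of the cMet library 3.58 and 28. The part of such RNA in the result was not tested. In the DDC library a single cell held 543 of the 1068 core UMIs, and without it the level was 4.74. That cell also held 213 of 215 Rsad2 UMIs of the class. Bst2 led this class in both libraries, with 3.43 and 3.24 per 10,000. Bst2 also marks plasmacytoid dendritic cells, and all 4 markers listed for that cell type (Bst2, Irf8, Siglech and Ccr9) had UMIs and summed to 11.9 and 16.5 per 10,000 here against 4.98 and 4.43 in Kupffer-like cells. That sum includes Bst2 itself and Irf8, named above as a macrophage transcription factor. Cells of the lymphoid panel stood at 10.6 and 2.59 on the same list. The part of plasmacytoid dendritic cells in the result was not tested. After Rsad2, the next members in the DDC library were Ifi27 (1.65), Iigp1 (1.22) and Irf7 (1.06). Isg15 (1.43), Irf7 (1.41), Ifi27 (1.29) and Irf1 (1.19) followed Bst2 in the cMet library.

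Between the libraries, the core differed in Kupffer-like cells more than in Alb-high cells, with no test of that difference. In Kupffer-like cells the core was at 16.5 per 10,000 in the cMet library and 8.03 in the DDC library (log2 ratio 1.04, 0.99 to 1.09). There 8 of 24 type I-like and 2 of 8 gamma-like members passed the fold upward and none downward, where 4.25% of 10850 genes passed upward and 3.28% downward. The widest were Rsad2 (1.63 against 0.226 per 10,000, 2.85), Isg15 (2.01 against 0.29, 2.79) and Ifit2 (0.88 against 0.147, 2.58). Iigp1 (-0.71), Bst2 (-0.64) and Ifi27 (-0.55) had the lowest ratios. The chemokine gene Cxcl10 was at 1.26 against 0.207 (2.60), and Cxcl9 at 0.275 against 0.643 (-1.23). Receptor and sensor genes stayed inside the fold in these cells: 0 of 5 receptor and 0 of 12 sensor genes with 50 UMIs passed it, with medians of -0.03 and 0.16.

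In Alb-high cells the core differed little, at 2.97 in the cMet library against 3.15 (-0.08, -0.11 to -0.06). The type I-like sum was lower by 0.26 on the log2 scale (-0.26, -0.28 to -0.25) and the gamma-like sum by 0.38 (-0.38, -0.40 to -0.36), while the median of all genes was -0.31. Of 24 type I-like members, 2 passed the fold upward and 0 downward, and of 8 gamma-like members 2 passed downward, where 6.05% of 13468 genes passed upward and 13.6% downward. Those upward were Oas2 (1.85), at a level read above as background, and Oas1a (0.114 against 0.0453, 1.33), which makes the same messenger, followed by Ifit3 (0.108 against 0.0601, 0.85), whose DDC level was below that outside the filter. Without the very high cells Ifit3 passed the fold too (1.14), and Rsad2 went from -0.18 to -0.85. A single DDC cell under the cut for very high cells, described below, held many of the DDC Rsad2 UMIs left. The Rsad2 value therefore depends on where that cut fell. Those downward were Gbp2 (0.0596 against 0.172, -1.53) and Ifi47 (0.118 against 0.337, -1.52), a GTPase that targets pathogen vacuoles. The cMet level of Gbp2 was itself below that outside the filter (0.0656). Gbp3 and Zbp1 were next at -0.89 each. Cxcl9 was at 0.132 against 1.06 and Cxcl10 at 0.346 against 0.351. The median depth of Alb-high cells was 3022 UMIs in the cMet library and 25509 in the DDC library; depth, treatment and time cannot be told apart.

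Within the DDC library, cells in no panel with at least 10000 UMIs were ordered by EGFP, the Sox9 reporter. The bins of 0, above 0 and under 1, 1 to under 3, and 3 or more EGFP UMIs per 10,000 held 876, 473, 204 and 165 cells. The core level was 2.7, 3.21, 4.36 and 5.15 per 10,000 across them, and the gamma-like level 4.6, 5.15, 5.41 and 5.46. Rtp4, a chaperone induced by type I interferon, was at 0.194, 0.251, 0.368 and 0.53. Ifit3 was at 0.0261, 0.0534, 0.283 and 0.234, and Ifit1 at 0.141, 0.159, 0.363 and 0.472. The 3 upper bins each held 1 cell of very high core level. Without those 3 cells the core level was 2.7, 3.07, 3.25 and 4.03, Ifit3 0.0261, 0.0364, 0.037 and 0.084 (all below the 0.107 outside the filter), and Rtp4 0.194, 0.248, 0.348 and 0.522. The cells without EGFP can come from WT mice on normal diet or from Sox9-EGFP mice, and the median Alb level was 243 per 10,000 in the lowest bin and 70.6 in the highest. Median depth was 37209.5 and 52552 UMIs. The 7 biliary and progenitor genes summed to 19.3, 47.6, 75.5 and 190 per 10,000 over the bins, and the stellate panel to 0.381, 0.436, 0.649 and 1.91. The part of Alb, depth and these markers in the result was not tested.

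From 0 EGFP to the highest bin, the type I-like sum had a log2 ratio of 0.53 (0.50 to 0.56), or 0.39 without the very high cells. The gamma-like sum had 0.25 (0.20 to 0.30). The median over all genes with 50 UMIs was 0.28, so the gamma-like sum rose no more than the median gene. By member the medians were 0.70 (type I-like) and 0.51 (gamma-like). In Alb-high cells alone the type I-like and gamma-like sums were at 0.58 and 0.44, and 0.36 and 0.35 without the very high cells. The core level there was 2.69, 3.22, 3.21 and 5.72 per 10,000 over the bins, or 2.69, 3.07, 3.21 and 3.9 without those cells, and the gamma-like level 4.65, 5.23, 4.97 and 6.3. One cell held 1059 of the 7266 type I-like UMIs of the highest bin. Of 22 type I-like members with 50 UMIs 9 passed the fold upward and 0 downward, and of 8 gamma-like members 1 and 0, where 11.9% of all 11551 genes passed upward and 5.93% downward. The widest ratios were those of Ifit3b (3.19), Ifit3 (3.16) and Oasl2 (2.89), and without the very high cells these were 1.39, 1.69 and 2.66; all 3 genes were among those whose Alb-high level is not read as expression. The lowest were Trim25 (-0.17), Stat2 (-0.01) and Igtp (0.05). Rsad2 turned from 0.90 to -2.14, as 1 cell held 247 of its 281 UMIs in the highest bin. Without those cells 7 of 21 type I-like members passed the fold upward and 1 downward, and no gamma-like member passed. EGFP had 11460 UMIs in 1019 kept cells. The red reporter tdTomato had 2 UMIs in 2 kept cells of the cMet library, so no bins could be made there.

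**Figure D4:**
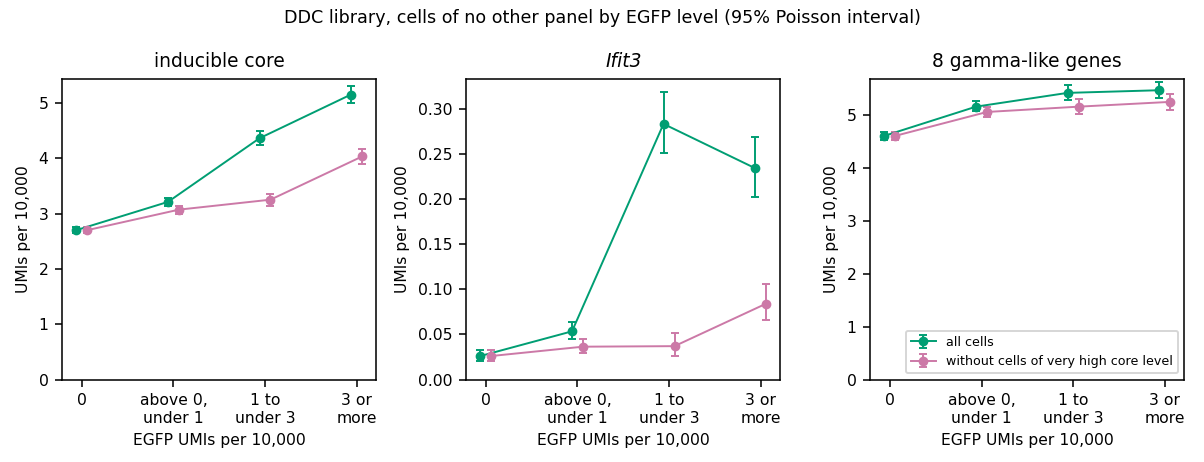
Level (y axis, UMIs per 10,000) of the inducible core, of Ifit3 and of the 8 gamma-like genes over 4 EGFP bins (x axis) of the DDC library, with and without the cells of very high core level, with 95% Poisson intervals. The outside-filter level of Ifit3 was 0.107. Leaving out 3 cells lowers Ifit3 in the upper bins from 0.283 and 0.234 to 0.037 and 0.084.

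Cells with at least 3 of the 18 core genes, called carriers here, were counted after thinning each cell to 2000 UMIs. This share follows the mean core level and does not by itself show that a cell responded. The mean was 0.609 and 0.602 core UMIs per thinned Alb-high cell. In Alb-high cells 49 of 1942 (2.52%, exact binomial interval 1.87 to 3.32) of the DDC library and 120 of 5175 (2.32%, 1.93 to 2.77) of the cMet library were carriers. Among barcodes with too few genes for the filter but enough UMIs to thin, 0 of 515 and 0 of 400 were carriers (which allows up to 0.583% and 0.75%, 3 barcodes each), at a median mitochondrial share of 89.2% and 88.6%, which leaves few other UMIs. Thinning left out 575 and 3121 shallower Alb-high cells. At full depth 56.1% and 31.2% of Alb-high cells held 3 core genes. In Kupffer-like cells 44 of 237 (18.6%, 13.8 to 24.1) and 459 of 1076 (42.7%, 39.7 to 45.7) were carriers, and at full depth 89.6% and 85.3%. Endothelial-like carriers were 6 of 45 (13.3%) and 52 of 268 (19.4%), and other myeloid carriers 5 of 67 (7.46%) and 22 of 148 (14.9%). At least 2 gamma-like genes were held by 13.2% and 8.71% of thinned Alb-high cells, 14.3% and 20.7% of Kupffer-like and 13.3% and 29.5% of endothelial-like cells.

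The spread between Alb-high cells rested largely on the very high cells described next. Core UMIs per thinned cell had a variance of 3.54 and 3.32 times their mean in Alb-high cells, and of 1.7 and 2.15 times in Kupffer-like cells, whereas counting error alone gives 1. Without the very high cells these were 1.41 and 1.4 in Alb-high and 1.7 and 1.71 in Kupffer-like cells. In Alb-high cells 60% and 60.6% held no core gene after thinning, 13.4% and 14% of core UMIs lay in the top 1 percent of cells (9.04% and 9.06% without the very high cells), and single cells reached 13 and 10 core genes. In Kupffer-like cells 26.6% and 9.29% held none, and the top 1 percent held 3.61% and 5.19% of core UMIs. Among cells of at least 10000 UMIs the median core level was 2.37 and 2.07 per 10,000 in Alb-high cells (highest 271 and 268) and 7.33 and 15 in Kupffer-like cells (highest 32.5 and 169).

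**Figure D5:**
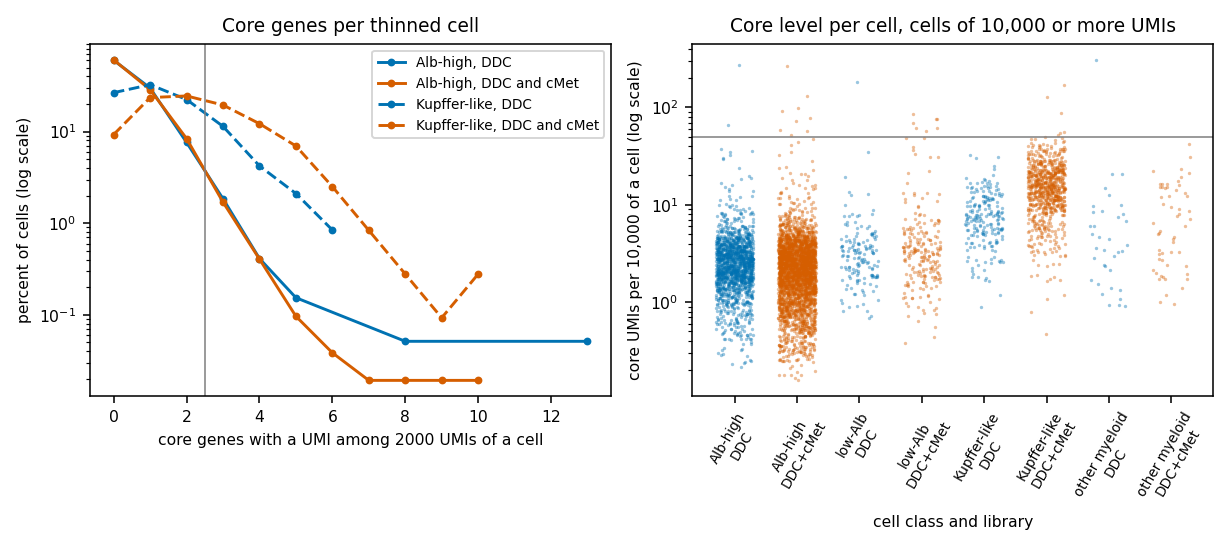
Left, percent of cells (y axis, log scale) by number of core genes with a UMI among 2000 UMIs (x axis) in Alb-high and Kupffer-like cells of both libraries; carriers lie right of the grey line. Right, core UMIs per 10,000 (y axis, log scale) of each cell with at least 10,000 UMIs and a core UMI, by class and library; a few cells lie above the grey line at 50.

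A small number of cells held core levels far above their class. Cells with at least 20 core UMIs and at least 50 core UMIs per 10,000, a cut chosen after seeing the data, made up 0.166% of the DDC library (6 of 3613, interval 0.061 to 0.361) and 0.222% of the cMet library (28 of 12593, 0.148 to 0.321). They were spread over classes: in the DDC library 2 Alb-high cells and 1 cell each of the low-Alb, mixed, other myeloid and endothelial-like classes, and in the cMet library 10 Alb-high, 7 low-Alb (cells in no panel with Alb under the cut), 7 Kupffer-like, 2 mixed, 1 other myeloid and 1 lymphoid cell. The 2 Alb-high cells of the DDC library held 5.89% of all core UMIs of that class and the 10 of the other library 10.2%. One Alb-high cell of the DDC library held 976 core UMIs of 36062 (271 per 10,000) from 17 core genes, with 149 Ifit1, 129 Ifit3, 181 Isg15 and 247 Rsad2 UMIs. The highest Alb-high cell of the cMet library held 1115 of 41673 (268 per 10,000) from 15 core genes, with 246 Ifit1 and 380 Rsad2 UMIs. Interferon gene UMIs were 0 in each of these 34 cells. Just under the cut, the highest Alb-high cells of the DDC library stood at 37.2 and 35.6 core UMIs per 10,000, and a single cell under the cut held 349 of the 1471 Rsad2 UMIs of the class.

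The very high cells did not all express the same members. They were picked by core level, so their excess in core genes, here Ifit1, Ifit3, Isg15, Rsad2 and Irf7, is built in by the cut. The high Rsad2 of the 5 low-Alb cells below is likewise built in by the share of Rsad2 that set them apart. In the DDC library the 3 in no panel had 27.2 Ifit1, 28.1 Ifit3, 27.7 Isg15 and 27.1 Rsad2 UMIs per 10,000, where the other cells in no panel had 0.16, 0.038, 0.454 and 0.164. Gamma-like members were high there too, with Gbp2 at 3.37 against 0.178 and Iigp1 at 23 against 3.15, while Ifi27 was at 1.35 against 2.48. In the cMet library 5 low-Alb cells had at least 50% of their core UMIs in Rsad2. They had 49.7 Rsad2 per 10,000 together with 86.8 Ccl5, 31.5 Cxcl10 and 25.2 Ccl2, chemokines that draw T cells and monocytes, and 7.11 Ifit1. One of the 5 held 1383 of the 1709 Ccl5 UMIs, and the other 4 had 25.8 Ccl5, 36.1 Cxcl10 and 38.2 Ccl2 per 10,000. The Ifit3 UMIs of these 5 cells were 1, 4, 0, 0 and 1. The 12 other very high cells in no panel of that library had 28.9 Rsad2, 25.8 Ifit1, 9.2 Ifit3 and 13.8 Isg15 per 10,000. Their Ifit3 was uneven, from 0 to 114 UMIs in a cell, so few Ifit3 UMIs were not particular to the 5 cells. A low-Alb cell among the 12, with 47.7% of its core UMIs in Rsad2, held 4 Ifit3 and 844 Ccl5 UMIs. In the 7 very high Kupffer-like cells Rsad2 was at 19.2 against 1.5 in the other Kupffer-like cells, and Irf7 at 12.7 against 4.39.

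Cells in which Ifnb1 was detected had higher core levels in the same class. Among Kupffer-like cells of at least 10000 UMIs in the cMet library, the 54 with an Ifnb1 UMI had a median core level of 19 per 10,000 (quartiles 12.7 and 27.8) and the 711 without one had 14.8 (9.87 and 21.1). The highest value, 169, lay among those without Ifnb1, and the ranges overlapped nearly throughout (4.66 to 47.4 with Ifnb1, 0.475 to 169 without). Among other myeloid cells the medians were 12.1 (10 cells) and 4.62 (47 cells). The Kupffer-like cells with Ifnb1 were also deeper, with a median of 17163.5 against 14687 UMIs, and the part of depth in the difference was not tested.

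The antigen presentation genes that interferon gamma induces were mainly higher in Kupffer-like cells. In Kupffer-like over Alb-high cells 10 and 12 of 15 passed the fold upward, where 23.6% and 32.7% of all genes did, and none downward, with the widest ratio in the class II gene H2-Aa (25.5 and 26.8 per 10,000 against 0.467 and 0.303). The class I light chain B2m was nearly level, at 20 and 21.2 against 26.6 and 22.9. Between the libraries 1 of 15 passed the fold in Kupffer-like cells (H2-Eb1, 8.38 against 19.5, -1.22) and 3 of 15 in Alb-high cells, all downward, where 3.28% and 13.6% of all genes passed downward. The count in Alb-high cells is near that background.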

How the data were processed

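Single-cell RNA was measured with 10x Chromium (3′ chemistry) in 2 libraries. The authors deposited raw UMI counts as sparse matrices, beside lists of genes and barcodes (other, text without a unit). The file headers name Cell Ranger 5.0.1, whereas Cell Ranger 6.0.1 and build mm10 stand in the submitters' processing notes; the version behind the matrices is unsettled.

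Counts were summed per class and given per 10,000 UMIs. Classes came from marker panels: myeloid (12 genes), endothelial (13), stellate (10), lymphoid (13) and neutrophil (8), each needing 3 markers and 20 (myeloid) or 10 UMIs per 10,000, and Kupffer from 2 of 6 markers at 5 per 10,000. Alb-high means no panel and Alb at or above the median, divided by 4, of cells with at least 10000 UMIs (cuts 52.4 and 102 per 10,000). Members, lists, classes and comparisons were chosen with earlier results of these data known. Log2 ratios carry exact conditional binomial intervals, levels exact Poisson and shares exact Clopper-Pearson intervals. A class at 0 was set at 3 UMIs for a bound. A gene passed the fold at an absolute log2 ratio of 1 with at least 50 UMIs. Named are the 5 highest members per class and the 3 highest and 3 lowest ratios per comparison, and others by role; single cells were picked after seeing values. The ratio was checked on simulated data. Scanpy 1.11.5, leidenalg 0.10.2, scipy 1.17.1 and Python 3.11.15 were used, and promoters came from RefSeq (GRCm38.p6). Alternatives were a stricter cell filter, equal weight per cell, a stricter marker rule, Leiden classes and other carrier rules.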

Additional observations from a re-analysis of the deposited data

Results flagged for a closer look

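Some members had log2 ratios of opposite sign in the libraries, each library being 1 sample; the difference was not tested. The gamma-like sum in Kupffer-like over Alb-high cells was -0.55 in the DDC library and 0.33 in the DDC and cMet library. Isg15 was at -0.73 and 2.49 in the same comparison, and Irgm1, a GTPase that limits intracellular bacteria, at -0.34 and 0.55. In endothelial-like over Alb-high cells Iigp1 was at -0.47 and 0.16.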

How the results depend on the processing

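No paired analysis was possible because each group is 1 library. Of 70 alternative values, 1 changed sign, 34 stayed within the counting interval of the reported value and 35 moved beyond it; the cause was not tested. Values are log2 ratios unless said otherwise. With each cell weighted the same, the type I-like sum was at 0.57 (DDC) and 1.27 (cMet) in Kupffer-like over Alb-high cells, 1.04 and 0.88 in endothelial-like over Alb-high cells, -0.13 in Alb-high cells between libraries and 0.66 over EGFP, and the gamma-like sum at 0.29 in Kupffer-like cells (cMet) and -0.41 between libraries in Alb-high cells. The stricter cell filter gave type I-like values of 1.37 in Kupffer-like cells (cMet) and -0.24 between libraries in Alb-high cells. The stricter marker rule gave 0.56 (Kupffer-like, DDC), 0.72 (endothelial-like, DDC) and -0.23 (Alb-high, between libraries) for type I-like and -0.31 (Alb-high, between libraries) for gamma-like members. Leiden classes gave 1.30 (Kupffer-like, cMet), 0.70 (endothelial-like, cMet) and -0.25 (Alb-high, between libraries) for type I-like members, and -0.13 (Kupffer-like, DDC) and 0.74 (endothelial-like, cMet) for gamma-like members. Leaving out the very high cells, chosen after seeing the data, gave type I-like values of 0.56 and 1.0 in endothelial-like cells, -0.29 in Alb-high cells between libraries and 0.39 over EGFP, and gamma-like values of 0.19 over EGFP and -0.03 in endothelial-like cells (DDC), the change of sign. Over EGFP, Alb-high cells alone gave 0.58 (type I-like) and 0.44 (gamma-like), or 0.36 and 0.35 without the very high cells, and an upper bin from 1 gave 0.49 (type I-like). The share of Alb-high carriers was 10.1% and 10.7% with at least 2 core genes, 17.2% and 16.3% over all type I-like members, and 14.9% and 12.5% after thinning to 5000 UMIs. The carrier share thus depends on the rule and the depth, and the other myeloid and endothelial-like classes of the DDC library rest on 67 and 47 cells.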

Other observations

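In the DDC library 9 cells passed the stellate panel, but their biliary and progenitor genes (166 per 10,000) and hepatocyte check genes (79.9) exceeded the panel itself (59), so they are not called stellate-like. Their core level was 14.5 per 10,000, and 1 cell held 340 of their 501 core UMIs. In the DDC and cMet library 31 stellate-like cells (panel 207 per 10,000, hepatocyte check genes 44.7) stood at 10.1, with Bst2 at 3.15, Ifi27 at 2.14 and Isg15 at 1.93. Lymphoid-like cells (19 and 18) had core levels of 2.02 and 6.84, and 44 of the 74 core UMIs in the latter came from 1 cell. Cells in no panel with Alb under the cut had core levels of 5.06 and 7.41, or 3.65 and 5.21 without the very high cells.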
